A study of Mus musculus with 9 samples.

Results

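The 10 T cell identity genes examined here were *Cd3d*, *Cd3e*, *Cd3g*, *Cd4*, *Cd8a*, *Cd5*, *Lck*, *Foxp3*, *Itgae* and *Nkg7*, chosen by symbol for what they mark. Earlier results of these data were known when they were chosen, so their direction is not independent support. All 10 were found in a table of 17943 genes, and all 10 were among the 16426 genes that passed the filter on low counts. The question was how the T cell transcripts of whole skin differed between control and *Supt6*-KO mice. Bulk RNA-Seq of skin covered 5 control mice, which carried floxed *Supt6* alleles without Cre and received corn oil, and 4 *Supt6*-KO mice, which carried K14-CreERT and the same floxed alleles and received tamoxifen. Tamoxifen or oil was given once a day on 5 consecutive days during the first telogen, the resting phase of the hair cycle, and skin was harvested on day 10 after the last injection. The sample labels call the controls wild-type, name the other mice KO in their titles and knockdown under genotype, and give the tissue as ear, whereas the study's methods give floxed controls and dorsal skin. The Keratin 14 promoter drives Cre in basal keratinocytes, so the deletion was aimed at epidermal cells and not at T cells. The study describes the *Supt6*-KO tissue as lesional skin and the control tissue as matched skin. Genotype, Cre, tamoxifen and this choice of tissue differed between the groups together and cannot be told apart. Estimated counts summed to between 29627341 and 30967107 per mouse, and the lowest members rested on very few of them.

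*Supt6* served as a check of the labels. Its level was 74.5, 56.6, 63.6, 91.1 and 96.7 CPM, a read count relative to library size with libraries scaled by edgeR's TMM method, in control mice 1 to 5. In *Supt6*-KO mice 1 to 4 it was 28.6, 24.1, 21.9 and 28.4 CPM, so the groups did not overlap. The log2 fold change was -1.57 (SE 0.18, adjusted p = 1.3e-05 in edgeR's quasi-likelihood test). With fold changes corrected for transcript length and GC content the value was -0.16 (adjusted p = 0.14), and the call was lost. All log2 fold changes below compare *Supt6*-KO with control mice in this test, unless another is named.

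T cells recognise antigen through the T cell receptor, which reaches the cell surface and signals only together with the CD3 chains. The co-receptors CD4 and CD8 bring the kinase LCK to this complex, LCK phosphorylates the CD3 chains, and CD5 damps the signal. Mouse epidermis normally holds resident γδ T cells, which lie among the keratinocytes, and αβ T cells with CD4 or CD8 enter skin in greater numbers during inflammation. In bulk RNA, fewer T cells and less RNA per T cell cannot be told apart, and this applies to every result below.

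The 3 CD3 genes lie side by side on mouse chromosome 9 (GRCm38, the sequence of mm10). *Cd3g* occupies chr9:44969572-44980431 on the reverse strand, *Cd3d* chr9:44981769-44987052 on the forward strand and *Cd3e* chr9:44998735-45009663 on the reverse strand. *Cd3g* and *Cd3d* are neighbours and point away from each other. *Cd5* lies elsewhere, on the reverse strand at chr19:10718107-10739026. The promoters of these 4 genes are shown because the 3 neighbours fell by unequal amounts and *Cd5* rose. Each window is taken from RefSeq (GRCm38.p6), reads 5′ to 3′ on the gene's own strand and holds 250 bases before and 50 after an annotated start. For *Cd3d*, *Cd3e* and *Cd5* this start lies inside the gene span given above and not at its edge. Capitals mark matches to 6 motifs on either strand. For ETS factors the motif was AGGAAG, for RUNX factors it was TGTGGT and for E-proteins it was CAGCTG. For TCF/LEF factors the motif was CTTTGA, for the GATA family it was AGATAA and for the TATA box it was TATAAA.
*Cd3g*, chr9:44980382-44980681: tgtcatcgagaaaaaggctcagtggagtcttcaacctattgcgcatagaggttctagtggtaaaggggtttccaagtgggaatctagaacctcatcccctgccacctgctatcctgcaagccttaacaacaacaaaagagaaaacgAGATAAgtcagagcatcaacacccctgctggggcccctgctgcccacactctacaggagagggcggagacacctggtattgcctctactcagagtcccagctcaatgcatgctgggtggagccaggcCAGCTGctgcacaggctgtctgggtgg
*Cd3d*, chr9:44981536-44981835: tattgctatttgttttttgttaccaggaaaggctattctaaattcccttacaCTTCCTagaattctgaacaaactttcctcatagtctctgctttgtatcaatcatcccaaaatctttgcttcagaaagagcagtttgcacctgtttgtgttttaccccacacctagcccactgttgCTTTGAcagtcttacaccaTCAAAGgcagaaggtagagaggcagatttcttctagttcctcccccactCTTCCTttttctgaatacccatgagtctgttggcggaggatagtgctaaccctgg
*Cd3e*, chr9:45009562-45009861: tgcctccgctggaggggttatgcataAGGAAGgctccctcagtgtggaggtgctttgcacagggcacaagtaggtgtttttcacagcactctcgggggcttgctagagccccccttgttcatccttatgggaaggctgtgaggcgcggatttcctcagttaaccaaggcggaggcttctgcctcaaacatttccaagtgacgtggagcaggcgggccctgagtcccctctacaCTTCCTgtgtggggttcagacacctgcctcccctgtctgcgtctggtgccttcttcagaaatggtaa
*Cd5*, chr19:10738925-10739224: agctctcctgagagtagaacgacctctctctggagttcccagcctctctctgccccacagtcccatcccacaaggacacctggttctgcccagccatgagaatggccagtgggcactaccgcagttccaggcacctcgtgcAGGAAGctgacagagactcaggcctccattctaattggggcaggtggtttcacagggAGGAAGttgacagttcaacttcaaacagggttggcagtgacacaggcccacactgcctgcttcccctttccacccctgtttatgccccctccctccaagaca
The *Cd3d* window held 2 ETS matches and 2 TCF/LEF matches, and the *Cd3e* and *Cd5* windows held 2 ETS matches each. The *Cd3g* window held 1 GATA match, 104 bases before the start, and 1 E-protein match. Among 32851 RefSeq windows of the same length, 35.4% held the ETS letters, 16.8% the RUNX letters, 16.3% the E-protein letters, 16% the TCF/LEF letters, 13.6% the TATA letters and 11.2% the GATA letters. The 4 motifs found in these windows were thus found in many promoters, and a match is a description of letters, not of a bound site. Windows were found for 8 of the 10 members, and *Cd4* and *Itgae* were the other two.

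In control skin the members covered a wide range of levels, compared here per transcript length as TPM. *Cd3g* was highest, with a mean of 34.3 TPM ± 2.59 (SD, n = 5), and *Nkg7* followed with 16.9 ± 1.11, *Cd3e* with 10.9 ± 0.97 and *Cd3d* with 5.58 ± 0.96. These 4 did not overlap between neighbours in the order. *Lck* (2.82 TPM), *Itgae* (2.50), *Cd5* (1.53) and *Cd4* (0.80) came next, and neighbours among these overlapped. *Cd8a* (0.114 TPM) and *Foxp3* (0.018) lay far below. For the *Supt6*-KO group TPM was used for mouse 4 alone, where *Cd5* stood highest at 3.74 TPM, *Cd3g* had 1.69 and *Cd3e* 0.20.

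In *Supt6*-KO skin 5 of the 10 members fell, namely *Cd3e*, *Cd3g*, *Cd3d*, *Itgae* and *Nkg7*, and 2 rose, namely *Cd5* and *Cd8a*. The other 3, *Cd4*, *Lck* and *Foxp3*, did not pass the test. These calls need the background of this data set, in which the test called 36.8% of the genes lower and 34.1% higher (threshold of 0.05 on the adjusted p). With 10 members these counts lie close to the background and say little about the members as a set. In every *Supt6*-KO mouse 4 members lay below all controls and 1 lay above, where 31.8% and 28.9% of all genes tested did so. The plot of CPM by mouse shows that the members differed from each other in direction and size. The median log2 fold change was -0.49 over the members and -0.07 over all genes. With library totals, where that of all genes was -0.76, 6 members were lower and 2 higher, and without *Supt6*-KO mouse 4, which stood apart in its keratinocyte genes, 4 were lower and 2 higher.

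**Figure D1:**
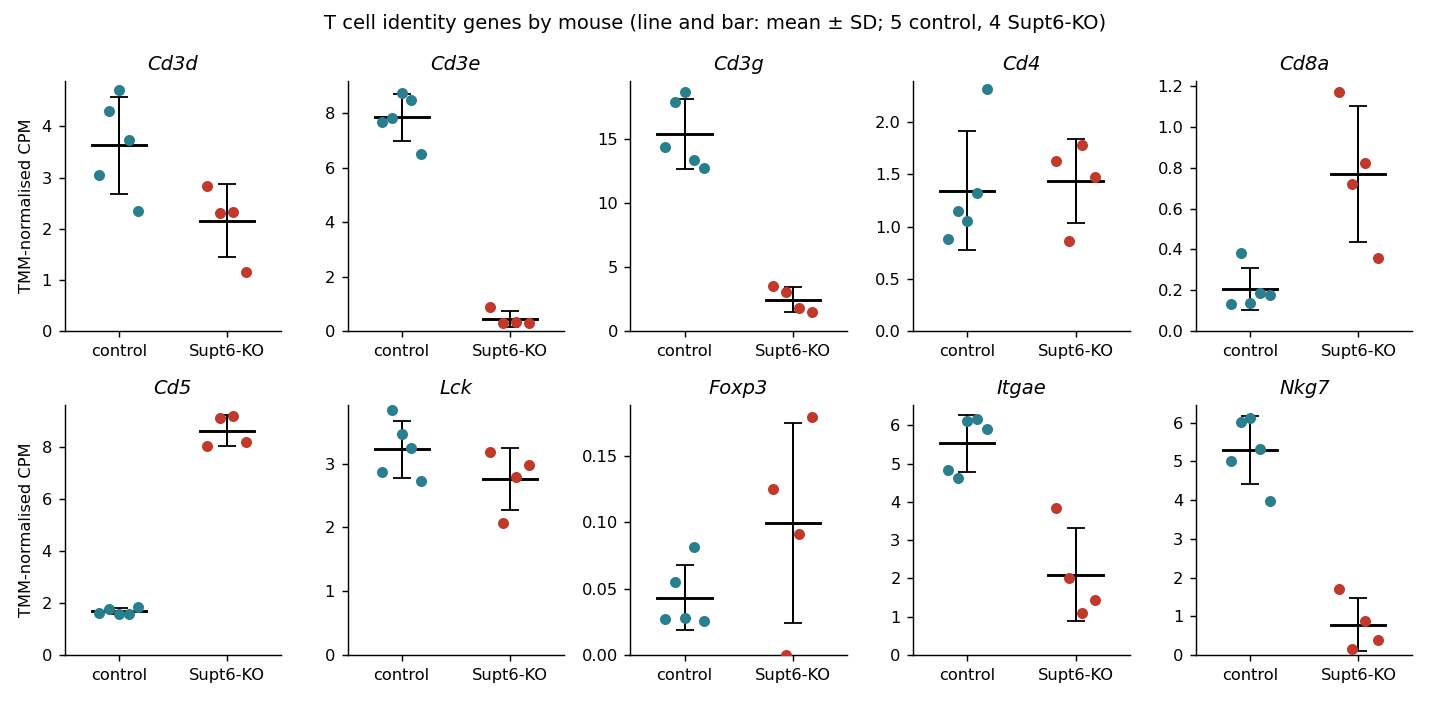
TMM-normalised CPM of each T cell identity gene in each mouse, with 5 control (teal) and 4 *Supt6*-KO mice (red), a line for the mean and a bar for the SD. *Cd3e*, *Cd3g*, *Itgae* and *Nkg7* lie lower in every *Supt6*-KO mouse than in any control, *Cd5* lies higher in every one, and the other genes overlap.

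Among the CD3 chains, *Cd3e* showed the deepest fall. It encodes CD3ε, a chain that every T cell receptor complex needs. *Cd3e* had 287, 286, 316, 313 and 256 counts in control mice 1 to 5 and 21, 6, 7 and 8 counts in *Supt6*-KO mice 1 to 4. After TMM scaling the mean was 7.85 CPM ± 0.86 (SD, n = 5) against 0.44 ± 0.29 (SD, n = 4), or 5.65% of the control mean. The log2 fold change was -4.13 (SE 0.33, adjusted p = 1.5e-06). Mouse 1 kept the most *Cd3e* of the *Supt6*-KO group and still lay far below the lowest control.

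*Cd3g*, which encodes CD3γ, also fell. Its counts were 536, 652, 673, 492 and 499 among controls against 84, 63, 40 and 41 for the *Supt6*-KO animals. The mean of 15.4 CPM ± 2.70 (SD, n = 5) went to 2.46 ± 0.96 (SD, n = 4), 16% of the control mean, with no overlap and a log2 fold change of -2.65 (SE 0.27, adjusted p = 6.1e-06). As for *Cd3e*, *Itgae*, *Nkg7* and *Cd5*, the exact permutation test on this gene alone gave p = 0.0159, the smallest that 5 mice against 4 allow.

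*Cd3d*, which encodes CD3δ, fell far less. It had 114, 157, 170, 138 and 92 counts among controls against 68, 48, 51 and 32 for the *Supt6*-KO animals. On the CPM scale this was 3.63 ± 0.95 (SD, n = 5) against 2.16 ± 0.72 (SD, n = 4), and control mouse 5 (2.34 CPM) lay below *Supt6*-KO mouse 1 (2.84 CPM). The log2 fold change was -0.75 (SE 0.29, adjusted p = 0.034). This call was lost when control mouse 2, 3 or 4 or *Supt6*-KO mouse 3 or 4 was left out, with adjusted p up to 0.081.

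The ratio of the chains within each library was also tested, which does not depend on how libraries are scaled. For each *Cd3e* count the controls held between 0.361 and 0.550 *Cd3d* counts and the *Supt6*-KO mice between 3.19 and 7.46. The mean log2 ratio was 3.47 higher in *Supt6*-KO mice (p = 0.0159, adjusted p = 0.0227, two-sided exact permutation test adjusted over 10 ratios). The ratio of *Cd3g* to *Cd3e* also rose, from between 1.57 and 2.28 in the controls to between 3.93 and 9.77, a difference of 1.54 on the log2 scale (p = 0.0159, adjusted p = 0.0227, exact permutation test). The fall of the 3 chains was therefore unequal by more than the spread between mice. Without *Supt6*-KO mouse 1 or 3 both calls were lost (p = 0.0357, adjusted p = 0.051, exact permutation test). There 0.0357 is the smallest p that 5 mice against 3 can give. The ratios of *Lck*, *Cd5*, *Cd4* and *Itgae* to *Cd3e* and of *Cd3e* to *Ptprc* lost their calls in the same cases. The value 0.0159 is the smallest that 5 mice against 4 can give, and the ratios that share *Cd3e* are not independent of each other.

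The genes on either side of the CD3 genes did not share their fall. *Ube4a*, to the left of *Cd3g*, had 70.5 CPM among controls against 75.1 CPM with the knockout (log2 fold change 0.09, adjusted p = 0.45), and *Mpzl2*, to the right of *Cd3e*, rose with a log2 fold change of 1.32 (adjusted p = 2.7e-05). These neighbours were chosen by position alone.

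Of the kinase and co-receptor genes, *Lck* did not pass the test. It encodes the kinase that starts T cell receptor signaling. *Lck* had 107, 140, 125, 120 and 107 counts among controls against 76, 43, 61 and 83 for the *Supt6*-KO animals, or 3.23 CPM ± 0.45 (SD, n = 5) against 2.75 ± 0.49 (SD, n = 4). The log2 fold change was -0.23 (SE 0.19, adjusted p = 0.31). With libraries scaled by their totals alone it was -0.90 (adjusted p = 0.0035), a setting in which the median of all genes lay at -0.76. Relative to *Cd3e* in the same library, *Lck* rose from between 0.374 and 0.490 counts to between 3.56 and 9.82, a log2 difference of 4.01 (p = 0.0159, adjusted p = 0.0227, exact permutation test).

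*Cd4*, the co-receptor of helper and regulatory T cells, which some mouse dendritic cells and macrophages also express, did not pass the test either. Counts of this gene were 33, 42, 38, 49 and 91 among controls against 39, 18, 39 and 41 for the *Supt6*-KO animals. The log2 fold change was 0.10 (SE 0.32, adjusted p = 0.8), and its sign turned with library totals (-0.60) and when control mouse 1 or *Supt6*-KO mouse 3 was left out (-0.02 and -0.03). Control mouse 5 stood above the other controls at 2.32 CPM.

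*Cd8a*, the co-receptor of cytotoxic T cells and a gene of some dendritic cells, rose from a very low level. It had 5, 14, 5, 7 and 7 counts among controls against 28, 15, 18 and 10 for the *Supt6*-KO animals. The means were 0.20 CPM ± 0.10 (SD, n = 5) and 0.77 ± 0.33 (SD, n = 4), with a log2 fold change of 1.88 (SE 0.42, adjusted p = 0.0019). Control mouse 2 (0.38 CPM) lay just above *Supt6*-KO mouse 4 (0.36 CPM), so the groups overlapped. *Cd8a* counts for each *Cd4* count went from between 0.082 and 0.341 to between 0.253 and 0.838, 1.71 higher on the log2 scale (p = 0.0317, adjusted p = 0.0397, exact permutation test). This call was lost without control mouse 1, 3, 4 or 5 or *Supt6*-KO mouse 1, 2 or 3, with adjusted p between 0.0714 and 0.0893 in the exact permutation test. *Cd8b1*, which encodes the partner chain of CD8α, had 0.04 CPM among controls against 0.09 with the knockout (log2 fold change 1.1, adjusted p = 0.3).

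*Cd5* was higher in every *Supt6*-KO mouse than in any control, and in both groups its spread relative to the mean was the smallest among the members. It encodes a surface inhibitor of T cell receptor signaling that a subset of B cells also carries. *Cd5* had 61, 65, 57, 58 and 72 counts among controls against 192, 190, 201 and 228 for the *Supt6*-KO animals, from libraries of nearly equal totals. The means were 1.68 CPM ± 0.12 (SD, n = 5) and 8.63 ± 0.61 (SD, n = 4), 5.14 times the control mean, and the log2 fold change was 2.36 (SE 0.15, adjusted p = 3.7e-07). Against *Cd3e* in the same library *Cd5* went from between 0.182 and 0.283 counts to between 8.95 and 29.3, a log2 difference of 6.60 (p = 0.0159, adjusted p = 0.0227, exact permutation test).

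The genes next to *Cd5* and a B cell list give its surroundings. *Cd6*, its close relative on the same chromosome and strand, had 0.08 CPM among controls against 0.34 with the knockout (log2 fold change 2.03, adjusted p = 0.0085), and *Vps37c*, on the other side of *Cd5*, fell by 0.44 on the log2 scale (adjusted p = 0.0022). Of 5 tested B cell genes 2 rose and 0 fell, and 1 rose with library totals or without control mouse 1 or 3 or *Supt6*-KO mouse 1, 2 or 3. *Cd79a*, part of the B cell receptor, had 0.04 CPM among controls against 0.07 with the knockout (adjusted p = 0.45). The summed level of the B cell list was between 0.241 and 0.684 CPM in the controls and between 1.11 and 2.29 CPM in the *Supt6*-KO mice. The part of B cells in the *Cd5* result was not tested.

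*Foxp3*, the master regulator of regulatory T cells, was at the limit of detection. It had 1, 2, 1, 3 and 1 counts among controls against 3, 0, 2 and 5 for the *Supt6*-KO animals, where 3 counts were taken as the floor of a library. The ratio of the pooled levels was 2.46 in favour of *Supt6*-KO mice, with a 95% interval for counting error alone from 0.876 to 7.19. The test across genes gave an adjusted p of 0.15, and a difference was not detectable at this depth. It passed the threshold with the length and GC correction (adjusted p = 0.025) and without *Supt6*-KO mouse 2, the mouse with no count (adjusted p = 0.04). *Foxp3* also shares its locus with *Ppp1r3f* and *Ccdc22* on the opposite strand, and whether counting used strand is not given in the sources used here.

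*Itgae* and *Nkg7*, the members tied to residency in epithelium and to killing, both fell. *Itgae* encodes CD103, an integrin chain that binds E-cadherin and is also found on some dendritic cells. It had 181, 169, 221, 228 and 232 counts among controls against 92, 42, 24 and 40 for the *Supt6*-KO animals, or 5.53 CPM ± 0.74 (SD, n = 5) against 2.10 ± 1.22 (SD, n = 4). The log2 fold change was -1.40 (SE 0.32, adjusted p = 0.0022), and *Supt6*-KO mouse 1 at 3.84 CPM came closest to the lowest control at 4.63 CPM. *Haspin* lies within *Itgae* on the opposite strand and moved the other way, up by 1.11 on the log2 scale (adjusted p = 0.029).

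*Nkg7* encodes a granule protein of cytotoxic T cells and natural killer cells. It had 187, 220, 221, 197 and 156 counts among controls against 41, 3, 19 and 11 for the *Supt6*-KO animals. The mean went from 5.29 CPM ± 0.87 (SD, n = 5) to 0.78 ± 0.69 (SD, n = 4), with no overlap and a log2 fold change of -2.75 (SE 0.48, adjusted p = 0.00034). Relative to its mean, *Nkg7* had the widest spread of all members among the *Supt6*-KO mice, from 0.14 CPM in mouse 2 to 1.71 in mouse 1. Its ratio to *Cd3e* did not pass the test (log2 difference 1.05, p = 0.0952, adjusted p = 0.106, exact permutation test), but passed without *Supt6*-KO mouse 2 (1.5, p = 0.0357, adjusted p = 0.0446, exact permutation test), whereas that of *Itgae* rose by 2.70 (p = 0.0159, adjusted p = 0.0227, exact permutation test).

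Each member's ratio in each library is given in the plot of ratios. *Ptprc*, which encodes the leukocyte antigen CD45, gave a reference outside the T cell genes. *Ptprc* had 18.3 CPM ± 1.36 (SD, n = 5) in controls and 21.7 ± 5.41 (SD, n = 4) in *Supt6*-KO mice (log2 fold change 0.24, SE 0.16, adjusted p = 0.21). For each *Ptprc* count there were between 0.321 and 0.473 *Cd3e* counts in the controls and between 0.012 and 0.0447 in the *Supt6*-KO mice, a ratio that fell by 4.45 on the log2 scale (p = 0.0159, adjusted p = 0.0227, exact permutation test). *Foxp3* against *Cd4* gave a log2 difference of 0.70 (p = 0.302, exact permutation test) and rests on very few counts.

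Fold changes in this data set moved with transcript length and GC content. Among genes with a mean of at least 1 CPM the median log2 fold change was 1.19 in the eighth with the shortest transcripts (204 to 1394 bases) and -0.94 in the eighth with the longest (6169 bases and over). By GC content it was 0.64 in the lowest eighth and -0.67 in the highest. *Nkg7* (881 bases), *Cd3g* (1023), *Cd3e* (1462) and *Cd3d* (1617) have short transcripts, so they fell against a trend in which short transcripts lay higher. With both properties corrected the log2 fold changes were -3.69 for *Nkg7*, -3.92 for *Cd3g*, -4.85 for *Cd3e* and -1.38 for *Cd3d* (adjusted p = 0.00072 in edgeR). Under this correction *Itgae*, with 3845 bases, was at -0.89 (adjusted p = 0.024), *Cd8a* at 1.73, *Cd5* at 3.04, *Lck* at -0.14 and *Cd4* at 0.45. The 5 lower and 2 higher members all stayed past the threshold, and the plot of fold changes shows them side by side. What lies behind the trend was not tested.

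**Figure D2:**
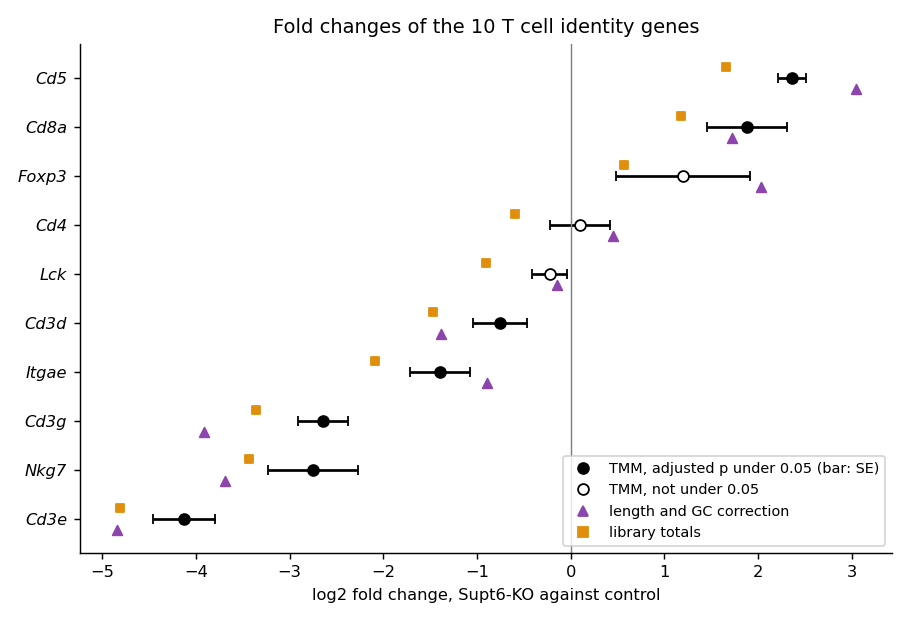
Log2 fold change of each member with its SE (circles, filled where adjusted p is under 0.05), with the length and GC correction (triangles) and with libraries scaled by their totals (squares). *Cd3e* is lowest at -4.13 and *Cd5* highest at 2.36, and *Cd4* changes sign with library totals.

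Of 25 tested genes of receptor chains and proximal signaling 9 fell, 6 rose and 10 did not pass, with a median log2 fold change of -0.19, and with library totals 14 fell and 2 rose. Against 36.8% of all genes tested called lower and 34.1% higher, these counts say little about the pathway as a set, and each list below is to be read against the same shares. *Cd247*, which encodes the ζ chain of the complex, had 7.81, 8.95, 10.4, 7.90 and 7.82 CPM in the controls and 2.26, 1.15, 1.14 and 1.08 CPM in the *Supt6*-KO mice. It fell by 2.60 on the log2 scale (SE 0.25, adjusted p = 4.4e-06). *Zap70*, the kinase that docks on phosphorylated CD3 chains, fell from 1.92 CPM ± 0.29 (SD, n = 5) to 0.48 ± 0.22 (SD, n = 4) (log2 fold change -2.0, adjusted p = 0.0001). *Cd2*, an adhesion receptor of T cells, had 2.27 and 1.89 CPM (adjusted p = 0.42), a value that reached adjusted p = 0.0057 with a log2 fold change of -1.11 under the length and GC correction.

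By mean CPM over all 9 mice the 3 most abundant genes of this list were *Fyn*, *Prkcq* and *Fyb*, although in the controls alone *Cd247*, *Trat1* and *Cd96* lay above *Fyb*. *Fyn*, a kinase of many tissues, had 17.9 and 20.1 CPM (adjusted p = 0.37), *Prkcq* had 10.8 and 8.32 CPM (adjusted p = 0.29), and *Fyb*, an adaptor of T cells and myeloid cells, rose from 4.79 to 7.46 CPM (log2 fold change 0.64, adjusted p = 0.011, but -0.09 with library totals). Genes picked after their values were seen are *Trat1* and *Cd96*, which fell by 3.01 and 3.21 on the log2 scale (adjusted p = 4.4e-06 and 7.6e-06). The receptor constant genes *Trac*, *Trbc1*, *Trbc2* and *Trdc* were not found under these symbols and were not analysed here.

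Of 14 tested T cell transcription factors 12 fell and 0 rose, with a median log2 fold change of -1.71. Under the length and GC correction 10 were lower and the median was -1.02. Among the most abundant were *Zbtb7b* (140.2 CPM in controls, 60.9 in *Supt6*-KO mice, log2 fold change -1.20, adjusted p = 0.0002) and *Gata3* (119.9 and 32.8 CPM, -1.87, adjusted p = 8e-06). *Gata3* is also a gene of the epidermis and hair follicle, and its level in T cells alone cannot be read from whole skin. Under the length and GC correction *Zbtb7b* was at 0.21 (adjusted p = 0.18), while *Gata3* was at -1.77 (adjusted p = 1.7e-05).

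Of 11 regulatory T cell genes 3 fell and 3 rose, or 5 and 3 under the length and GC correction. *Ctla4*, an inhibitory receptor induced on activated and regulatory T cells, rose from 0.42 CPM ± 0.06 (SD, n = 5) to 1.77 ± 0.54 (SD, n = 4) with no overlap (log2 fold change 2.06, adjusted p = 3.5e-05). *Il2ra*, the α chain of the interleukin-2 receptor, had 0.74 and 0.84 CPM (adjusted p = 0.58). The most abundant of the list were *Tnfrsf18* (18.4 and 25.9 CPM, adjusted p = 0.08), *Ikzf2*, which fell from 17.7 to 5.80 CPM (log2 fold change -1.61, adjusted p = 4.1e-06), and *Lrrc32*, which fell from 11.1 to 2.55 CPM (-2.12, adjusted p = 1e-05, and -0.73, adjusted p = 0.0046, under the length and GC correction). In controls all of these lay far above *Foxp3* (0.04 CPM) and *Cd4* (1.35 CPM). Their levels in regulatory T cells alone cannot be read from whole skin.

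Of 14 cytotoxic genes 5 were lower and 6 higher, counts near the shares of 36.8% and 34.1% over all genes tested. *Prf1*, which encodes perforin, had 119, 152, 112, 113 and 97 counts among controls against 1, 2, 2 and 3 for the *Supt6*-KO animals. The ratio of pooled levels was 0.0266, with a 95% interval for counting error from 0.0114 to 0.0528 (log2 fold change -5.17, adjusted p = 3.2e-07). *Gzmb*, which encodes granzyme B, went the other way, from 0.14 CPM ± 0.16 (SD, n = 5) to 1.99 ± 0.57 (SD, n = 4) (log2 fold change 3.80, adjusted p = 0.0002). *Ctsw*, a protease of cytotoxic cells, fell from 5.62 to 0.70 CPM (-3.00, adjusted p = 4.3e-05), and *Klrk1*, the receptor NKG2D, from 4.17 to 1.35 CPM (-1.63, adjusted p = 0.0012). *Klrb1c*, a marker of natural killer cells, had 0.42 CPM in both groups (adjusted p = 0.96), and *Ncr1*, another, had 8 counts over all 9 mice and was not tested.

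Of 10 genes tied to skin γδ T cells 4 were lower and 4 higher, also near the 36.8% and 34.1% of all genes tested. The receptor genes of this list, *Trdc*, *Trgc1*, *Trgc2*, *Trgv5*, *Tcrg-C1* and *Tcrg-V5*, were not found under these symbols. The counts therefore do not cover the γδ receptor itself. With library totals 5 were lower and 0 higher, and under the length and GC correction 3 and 2. *Cd7*, a surface protein of T cells and natural killer cells, fell from 13.7 CPM ± 3.14 (SD, n = 5) to 1.33 ± 0.25 (SD, n = 4) (log2 fold change -3.35, adjusted p = 7.3e-07). *Fcer1g*, a signaling chain that myeloid cells also express, rose from 11.7 to 22.8 CPM (0.96, adjusted p = 6.8e-05), but was at -0.30 (adjusted p = 0.31) under the length and GC correction. *Sema4d* rose from 11.6 to 18 CPM (0.63, adjusted p = 0.0024), but was at -0.04 with library totals. Among 12 genes of homing and residency 3 fell and 3 rose (7 and 1 with library totals, 5 and 3 under the length and GC correction), and the most abundant, *S1pr1*, *Ccr4* and *Selplg*, had log2 fold changes of -0.76 (adjusted p = 0.004), -0.90 (adjusted p = 0.095) and -1.07 (adjusted p = 0.00038).

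Of 7 tested T cell cytokine genes 4 rose and 0 fell, all of them at low levels, with 3 higher and 1 lower under library totals and 1 lower under the length and GC correction or without *Supt6*-KO mouse 1. *Il4*, the signature cytokine of type 2 helper T cells that mast cells and basophils also make, had 0 counts in every control against 17, 19, 9 and 31 for the *Supt6*-KO animals. Against the floor of 3 counts per library this was at least 9.76-fold higher. *Il17f* rose from 0.07 CPM ± 0.04 (SD, n = 5) to 0.47 ± 0.22 (SD, n = 4) (log2 fold change 2.64, adjusted p = 0.00094), and *Il17a* from 0.03 to 0.21 CPM (2.75, adjusted p = 0.024), a call lost with the length and GC correction (adjusted p = 0.23). *Il13* had 0.12 CPM in both groups (adjusted p = 0.98).

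Of 17 tested genes listed as keratinocyte ligands for skin T cells 5 were higher and 4 lower, or 1 higher and 5 lower with library totals. Under the length and GC correction 3 were higher, and with a replicate block 2. *Skint1*, which is needed for the epidermal γδ T cells to develop, had 25.8, 31.3, 31.9, 25.8 and 20.8 CPM in the controls and 99.2, 107.5, 76.0 and 6.07 CPM in the *Supt6*-KO mice. *Supt6*-KO mouse 4 thus lay below all controls and the other *Supt6*-KO mice above them (log2 fold change 1.41, adjusted p = 0.036). Under the length and GC correction the value was 0.0031 (adjusted p = 1), and the call was lost. *Skint9* showed the same mouse apart, at 7.65 CPM against 144.3 to 304.8 CPM in the others of its group. *H60c*, a stress ligand of NKG2D, rose from 60.2 CPM ± 10.7 (SD, n = 5) to 390.6 ± 113.6 (SD, n = 4) (log2 fold change 2.70, adjusted p = 1.6e-06). *Cdh1*, which encodes E-cadherin, the ligand of CD103, fell by 0.63 on the log2 scale (adjusted p = 0.0035) and was at -0.03 (adjusted p = 0.84) under the length and GC correction. *Il7* was at -0.56 (adjusted p = 0.048) and *Il15* at 0.48 (adjusted p = 0.22), both cytokines that maintain T cells. Without *Supt6*-KO mouse 4 the list had 9 genes higher, without *Supt6*-KO mouse 2 or control mouse 4 it had 2, and without *Supt6*-KO mouse 1 or 3 or control mouse 5 it had 3. The length and GC correction also moved other genes named above by over 1.5 times while they stayed past the threshold, to log2 fold changes of 1.15 for *Ctla4*, 2.81 for *Gzmb*, 1.34 for *Il17f*, 1.58 for *Sema4d*, 1.98 for *H60c*, -2.28 for *Klrk1*, -3.6 for *Ctsw* and -4.14 for *Cd7*. It took *Fyb* to 0.47 (adjusted p = 0.064), *Ccr4* to -1.15 (adjusted p = 0.048) and *Skint9* to -1.63 (adjusted p = 0.033).

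Markers of other cells moved with the groups beside the T cell genes. Of 11 pan-leukocyte genes 4 rose and 2 fell (1 and 5 with library totals, and 1 lower without control mouse 1, 3, 4 or 5 or *Supt6*-KO mouse 1, 2 or 3), and their summed level was between 193 and 219 CPM in the controls and between 262 and 337 CPM in the *Supt6*-KO mice. Of 14 Langerhans and dendritic cell genes 9 fell and 2 rose (10 and 0 with library totals), with *Cd207*, the marker of Langerhans cells, falling from 47.2 CPM ± 12 (SD, n = 5) to 10.9 ± 7.76 (SD, n = 4) (log2 fold change -2.12, adjusted p = 0.0015, and -2.91 under the length and GC correction). The summed level of this list went from between 1090 and 1420 CPM to between 239 and 654 CPM, with *Cd74*, the invariant chain of MHC class II, as its most abundant gene. Of 10 neutrophil genes 8 rose and 1 fell, and their sum went from between 14.4 and 43 CPM to between 2520 and 6460 CPM, with *S100a9*, which stressed keratinocytes also make, as the most abundant. Nearly all of this sum in *Supt6*-KO mice (mean 4680 CPM) came from *S100a9* (mean 2715 CPM) and *S100a8* (mean 1919 CPM). Of 10 macrophage genes 7 rose and 2 fell (3 and 2 with library totals and also under the length and GC correction), with sums from 107 to 270 CPM in the controls and from 252 to 320 CPM in the *Supt6*-KO mice. Their part in the T cell results was not tested.

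Traces of lymphoid organs and the tissue sampled were examined in the same way. The thymocyte genes *Rag1* (0.06 and 0.12 CPM, adjusted p = 0.32) and *Dntt* (8 counts over all 9 mice, not tested) were near 0, and of the 3 tested genes of this list 2 rose (0 with library totals, 1 without *Supt6*-KO mouse 3). These were *Cd1d1*, which presents lipids and is widely expressed (8.96 and 21.9 CPM, log2 fold change 1.29, adjusted p = 0.0023), and *Ptcra*, the partner chain of the immature T cell receptor, with 3 counts in 1 control and none in the others against 2, 1, 8 and 4 counts for the *Supt6*-KO animals (adjusted p = 0.018, ratio of pooled levels 9.86, with a counting interval from 2.79 to 53.1). *Ccl21a*, a chemokine of lymph node stroma and lymphatic vessels, had 37.3 and 39.8 CPM (adjusted p = 0.67), and was at -0.78 (adjusted p = 0.031) under the length and GC correction. The other of the 2 tested genes of lymph node stroma, *Cxcl13*, a chemokine that attracts B cells, rose from 0.11 to 0.60 CPM (log2 fold change 2.42, adjusted p = 0.0045), a call lost under the length and GC correction (0.94, adjusted p = 0.2). All 4 tested cartilage genes fell, and *Col2a1* was between 40.4 and 129 CPM in the controls and between 4.22 and 5.71 CPM in the *Supt6*-KO mice. Its log2 fold change was -3.86, or -1.99 under the length and GC correction. The summed cartilage level was between 220 and 599 CPM in the controls and between 30.4 and 35.8 CPM in the *Supt6*-KO mice. The other gene of this list, *Matn1*, had 1 count over all 9 mice and was not tested. Cartilage is a tissue of the ear and not of dorsal skin. RNA of the 4 tested cartilage genes was found in both groups at unequal levels, and its part in the T cell results was not tested. Among 6 epidermal and dermal genes 1 rose and 2 fell (4 lower with library totals, 2 higher under the length and GC correction or without *Supt6*-KO mouse 2 or 4), and *Krt14*, the gene whose promoter drives Cre, stood at 9613 CPM in *Supt6*-KO mouse 4 against 3114 to 4730 CPM in the other mice of the group.

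The CD3 genes also varied among mice of the same group. The mean deviation of *Cd3d*, *Cd3e* and *Cd3g* from the group mean, on the scale of log2(CPM + 0.5), was 0.49 in *Supt6*-KO mouse 1 and -0.46 in mouse 4, and 0.27 in control mouse 3 and -0.33 in control mouse 5. Among 13561 genes with a mean of at least 1 CPM, those whose deviations followed these most closely over the 9 mice were *Rab3d* (Pearson r = 0.991), *Klc3* (0.978) and *Dnajb3* (0.977), followed by *H2-T10*, *Popdc3*, *Efna3*, *Pex19*, *Ccdc3*, *Prxl2a* and *Wfikkn1* (0.955). *Trat1*, which encodes an adaptor that binds the receptor complex, ranked 41st (r = 0.924) and *Cd247* 242nd (r = 0.854). Other T cell genes ranked far lower, with *Cd2* at rank 1165 (r = 0.73), *Cd96* at rank 3481 (0.478) and *Cd7* at rank 4438 (0.357). *Itgae* and *Nkg7* had r of 0.646 and 0.643, *Lck* 0.358, *Cd5* -0.297 and *Cd4* -0.325. The 9 mice share their libraries with the genes compared and the highest values come from a long list, so these likenesses are descriptions.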

How the data were processed

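RNA-Seq of skin from 5 control and 4 *Supt6*-KO mice was analysed. Per the labels and the study's methods, the authors prepared mRNA libraries, sequenced paired reads on a DNBSEQ machine, aligned them to mm10 with Bowtie2 (version 2.3.4.3) and made gene counts with RSEM (1.3.1). HISAT and DESeq2 (1.4.5) are also named in the submitters' processing notes. The annotation release, the mouse strain and whether counting used strand are not given in the sources used here. The authors deposited expected counts, estimated per gene and not normalized between mice, of which 8.39% to 9.55% per mouse were not whole. They also deposited TPM values, scaled for transcript length and depth, for 6 of the 9 mice. TPM was used only to order the members within the controls and in 1 *Supt6*-KO mouse.

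Expected counts were rounded. A gene entered if its counts summed to at least 10 across the mice, and the groups were compared with the quasi-likelihood test of edgeR 4.0.16 (R 4.3.3) with TMM factors and no covariate. Benjamini-Hochberg adjustment covered all 16426 genes tested. TMM factors were between 1.20 and 1.31 in controls and between 0.674 and 0.910 in *Supt6*-KO mice. CPM values are TMM-scaled, and ratios used counts + 0.5. Single members, as the difference in mean log2(CPM + 0.5), and ratios were compared by two-sided exact permutation tests (scipy 1.17.1). Counting intervals are exact, at 95%, and together with the floor of 3 counts cover counting error only. Nothing in the sources says which mice were littermates or handled together, and p-values measure the spread between these samples.

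Gene identifiers were matched to RefSeq GRCm38.p6 for 17850 of 17943 genes, and transcript lengths and GC content came from GENCODE M21. In simulated counts for this comparison (16325 genes), edgeR recovered 99% of 100 genes changed 2-fold and 100% of 100 changed 4-fold. The changed genes were drawn only from genes with at least 50 expected counts per mouse. The spread between mice was set to 1 value for all genes and not taken from these data. *Cd4*, *Cd8a* and *Foxp3* lay below that count, so the recovery does not cover them. Alternatives were DESeq2 1.42.0, library totals, other size factors, other filters, dropping the top 50 genes by abundance, blocking on replicate number, each mouse left out and, chosen after seeing the data, a correction for length and GC content (loess, span 0.3).

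The members and the gene lists were chosen with earlier results of these data known, so their direction is not independent support. Genes named are the 10 members, the 3 most abundant genes of each list, defining markers fixed with the lists, genes next to a member, the 10 genes most like the CD3 genes, *Supt6*, and others said to be picked by value. *Cd8b1* was named as the partner of *Cd8a*. The results for some listed genes are not reported here.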

Additional observations from a re-analysis of the deposited data

Results flagged for a closer look

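Among 74 sets of values from 1 group of mice, 5 held a mouse far from the others, where chance alone would give about 1 in 20, or 3.7. *Cd3e* stood at 0.877 CPM in *Supt6*-KO mouse 1, against a group median of 0.304 CPM. *Cd8a* stood at 0.383 CPM in control mouse 2, against a median of 0.178 CPM. The log2 ratio of *Cd5* to *Cd3e* was 3.16 in *Supt6*-KO mouse 1, against a median of 4.75, which rests on the same *Cd3e* value. In control mouse 5 the log2 ratio of *Cd3e* to *Ptprc* was -1.64 (median -1.11) and that of *Cd4* to *Cd3e* was -1.49 (median -2.75). Control mouse 5 also had the highest summed level of cartilage genes, 599 CPM.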

How the results depend on the processing

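*Cd3e*, *Cd3g*, *Cd5*, *Cd8a*, *Itgae* and *Nkg7* kept their direction and stayed past 0.05 (adjusted p, edgeR and DESeq2) under every alternative that tested them. *Cd3d* ranged from -0.92 to -0.54 on the log2 scale with each mouse left out, and its permutation difference from -0.78 to -0.44, where that test lost its call in 7 of 9 cases. *Cd4* turned to -0.60 with library totals (difference -0.41 in the permutation test), and ranged from -0.0298 to 0.386 with each mouse left out (permutation -0.0022 to 0.25). *Lck* reached -0.90 with library totals (permutation -0.792). *Foxp3* reached 2.03 with the length and GC correction, and ranged from 0.74 to 1.55 with each mouse left out (permutation 0.0701 to 0.218). The permutation difference of *Cd8a* ranged from 0.674 to 0.993, and that test lost its call in 7 of 9 cases. *Nkg7* was at -3.48 without *Supt6*-KO mouse 1. A minimum of 10 counts in every mouse left 3 members lower and 1 higher, since *Cd3e*, *Nkg7*, *Cd8a* and *Foxp3* were then not tested. The other listed genes called higher numbered 31 under that filter and 28 with library totals, where the median of all genes moved to -0.76.

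With each mouse left out, log2 ratio differences ranged from -4.85 to -4.22 (*Cd3e*/*Ptprc*), 3.28 to 3.69 (*Cd3d*/*Cd3e*), 1.27 to 1.71 (*Cd3g*/*Cd3e*), 3.82 to 4.31 (*Lck*/*Cd3e*), 6.43 to 7.00 (*Cd5*/*Cd3e*), 4.17 to 4.67 (*Cd4*/*Cd3e*), 1.47 to 2.05 (*Cd8a*/*Cd4*), 2.53 to 2.86 (*Itgae*/*Cd3e*) and 0.74 to 1.5 (*Nkg7*/*Cd3e*). Without *Supt6*-KO mouse 1 or 3 the first 6 and *Itgae*/*Cd3e* had p = 0.0357, the smallest that 5 mice against 3 allow in the exact permutation test, and adjusted p = 0.051. Their calls were thus lost in these cases. Divided by *Ptprc* instead of *Cd3e*, the differences were -0.98 for *Cd3d*, -2.91 for *Cd3g*, -0.44 for *Lck*, -0.0744 for *Cd4*, -1.75 for *Itgae* and -3.41 for *Nkg7*, a different quantity.

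The replicate numbers were not taken to pair the mice. Same-numbered mice deviated with correlations, across genes, of -0.011, 0.243, 0.222 and 0.0592. Their mean was 0.128, against -0.025 for mice of other numbers. With a replicate block the log2 fold changes were -4.25 for *Cd3e*, -2.75 for *Cd3g*, -0.91 for *Cd3d*, -1.48 for *Itgae* and -3.03 for *Nkg7*, and the block changed no member's call.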
